A study of Mus musculus with 9 samples.

Results

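The comparison described here sets the suprarenal abdominal aorta of mice infused with angiotensin II (Ang II) for 28 days against the same segment from sham-operated mice. Members were chosen by sample title alone: the 3 libraries titled as Ang II-induced at 28 days and the 3 titled as sham control, 6 of the 9 RNA-seq libraries of the series, with every gene the files list. All 9 libraries came from ApoE knock out mice, so the deletion is shared by the treated and the control group. Ang II was given at 1000 ng/kg/min in saline by osmotic pump, and the sham group stands for saline; the labels give neither the strain, sex or age of the mice nor the day on which sham aortas were taken. The other 3 libraries, from mice infused for 14 days, entered the statistical fit only to share its estimate of the spread. Sample titles begin with the word muscle, whereas the tissue and source fields say aorta, and no field says whether the 3 libraries of a group came from 3 mice. The p-values below therefore measure the spread between these libraries, which may be technical. The question behind the comparison is how the aortic wall of this aneurysm model differs from the sham wall at the end of the infusion, with NF-kB, the inflammatory transcription pathway named in the series title, of particular interest.

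Ang II is the effector peptide of the renin-angiotensin system and acts mainly through its type 1 receptor to constrict vessels. Infused into mice that lack apolipoprotein E and so carry high plasma lipids, it is a standard way to produce dissecting aneurysms of the suprarenal aorta. The normal wall is layered: an endothelium, a media of contractile smooth muscle cells held between elastic lamellae, and an adventitia of fibroblasts, collagen and fat. In aneurysm, loss of contractile smooth muscle gene expression, breaks in elastin, protease activity and infiltration by macrophages and lymphocytes are the textbook features. A bulk library measures RNA from all the cells at once, so fewer cells of a type and less RNA per cell cannot be told apart in any result below.

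Each of the 6 libraries held between 9609690 and 13564489 estimated read counts over 18830 listed genes, and 14741 genes had enough counts to be tested. Apoe transcripts, which check nothing without the position of the deletion, were at 22.5, 87.5 and 70.3 counts per 1000000 (CPM) in sham libraries 1 to 3 and 22.99, 171 and 269.8 CPM in 28-day libraries 1 to 3. With edgeR's quasi-likelihood test and Benjamini-Hochberg adjustment over all 14741 genes, 0 genes (0%) passed an adjusted p of 0.05; the lowest adjusted p was 0.203, shared by 168 genes. At an unadjusted p under 0.05, 1174 genes (7.96%) were higher at 28 days and 868 (5.89%) lower. All 3 libraries of 1 group lay above all 3 of the other for 1802 genes (12.2%) in the higher direction and 1394 (9.46%) in the lower. DESeq2, run as an alternative on the same counts, gave 573 genes (3.89%) higher and 397 (2.69%) lower at an adjusted p under 0.05, and limma-voom gave 0. On counts simulated from these libraries, edgeR recovered 0% of genes changed 2-fold, 44% of those changed 4-fold and 76% of those changed 8-fold, with 5 false calls among 14741 genes, against 20%, 72% and 90% with 82 false calls for DESeq2. The simulation drew each gene independently, without differences in tissue makeup shared by many genes, so these rates need not hold for the real libraries. The direction and size of differences are therefore given for each library below, with the adjusted p of edgeR, and no gene is described as having passed it. The median log2 fold change of all tested genes was -0.080. Where leaving out 1 library moved a list's main count by over 1.5 times, the count without that library is given. Library values are listed in the order 1, 2, 3 throughout, those of sham before those of 28 days, and log2 fold changes are 28 days minus sham with their standard error.

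Libraries within a group differed in tissue makeup, as the plot of marker lists by library shows. Sham library 1 carried heart muscle transcripts, with Myh6, the alpha myosin heavy chain of heart muscle, at 324, 1.001 and 3.92 CPM in the sham libraries and 0.438, 0.143 and 0.152 CPM at 28 days. Nerve and ganglion markers were high in sham library 2 and 28-day libraries 2 and 3: Dbh, the noradrenaline-making enzyme of sympathetic neurons, was at 21.7, 1755 and 0 against 0.547, 833 and 387 CPM. Skeletal muscle transcripts were high in 28-day libraries 1 and 2 and far lower in 28-day library 3. Several muscle genes in 28-day library 3, such as Acta1 and Myh1, still lay above every sham library. Markers of lymph node and B cells were highest in 28-day library 2. The largest principal component of the 6 libraries (54.3% of the variance) separated sham library 2 and 28-day libraries 2 and 3 from the other 3, and the second (26.8%) separated sham from 28 days. All 28 tested members of the contractile smooth muscle list were detected in each library. Tested genes had already passed a count filter and striated muscle shares some members, so this detection alone does not show the cell type. Myh11, the most specific marker of smooth muscle, was present in all 6, at the values given below.

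**Figure D1:**
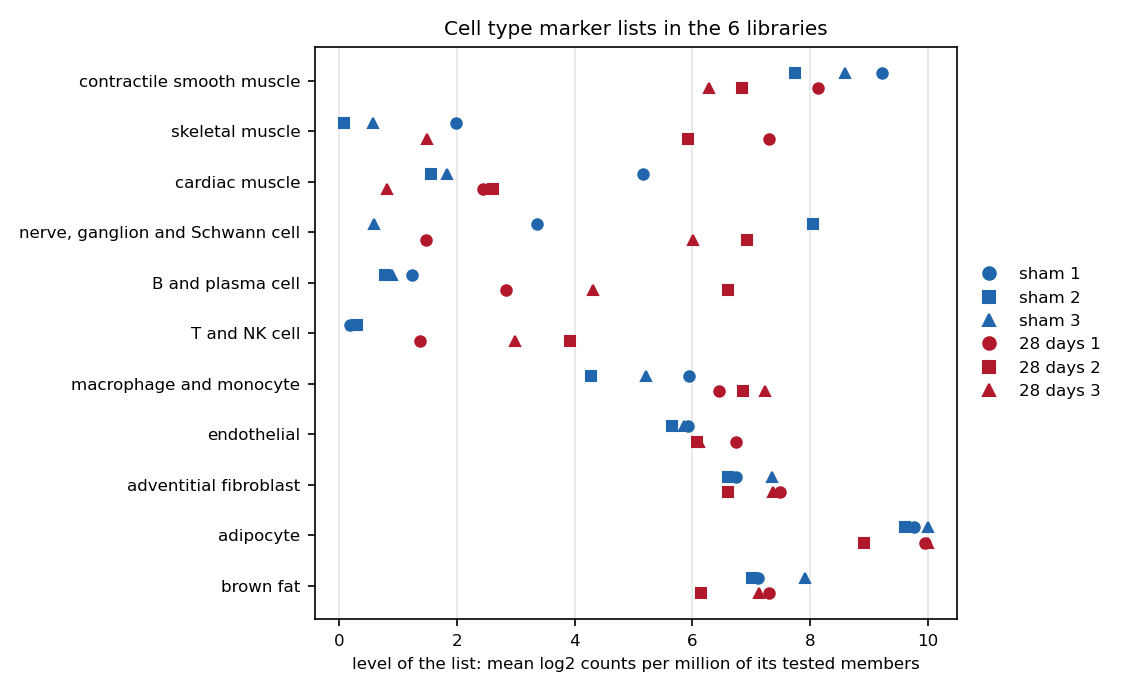
Level of 11 cell type marker lists in each of the 6 libraries, as the mean log2 CPM of the tested members of the list; blue marks are sham libraries, red marks 28-day libraries, and the shape gives the library number. The contractile smooth muscle level was 9.22, 7.74 and 8.59 in sham and 8.14, 6.84 and 6.28 at 28 days, while the skeletal muscle level reached 7.30 and 5.93 in 28-day libraries 1 and 2 and was 1.49 in 28-day library 3.

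Skeletal muscle transcripts had the highest fold changes of the whole comparison and are set apart from the wall. The skeletal muscle list (sarcomere, calcium handling and creatine kinase genes of striated muscle) took 0.124%, 0.0267% and 0.0414% of all counts in sham libraries and 2.74%, 1.16% and 0.0395% in 28-day libraries. Myh4, the fast type IIb myosin heavy chain, had 0, 0 and 0 CPM in sham and 669, 333 and 1.67 CPM at 28 days. Set against the 3-count floor of the sham libraries (0.267 CPM on average), its mean at 28 days was at least 1253-fold higher. Acta1, the skeletal muscle actin, was at 2.34, 1.502 and 0.979 CPM in sham and 4700.0, 1584 and 35.8 CPM at 28 days. The same order of the 28-day libraries, 1 above 2 above 3, held for Myh1 (2819, 653 and 16.1 CPM), for the calcium pump Atp2a1 (2820.3, 879 and 19.1 CPM) and for troponin Tnnt3 (2095, 795 and 17.2 CPM). Ckm, muscle creatine kinase, was at 36.5, 0.858 and 3.203 against 2125, 761 and 13.3 CPM and the oxygen store Mb at 119, 2.65 and 12.01 against 1513, 453 and 14.5 CPM, so that 28-day library 3 lay inside the sham range for both. Of 54 tested members, 35 were higher at an unadjusted p under 0.05, 0 lower, and only 19 had groups that did not overlap. A wider set of 93 tested genes, made of the list and of genes whose level followed it at a Pearson r of at least 0.9 over the 9 libraries, held 60 of the 1174 genes that were higher at that p and 0 of the 868 that were lower. Genes chosen to follow a level that was highest at 28 days could hardly be lower, so the direction of this set is no separate result. Outside that set 1114 higher and 868 lower genes remained. The sections below are about genes outside the set, except that 1 member of the endothelial list belongs to it. With 28-day libraries 1 and 2 left out, the median log2 fold change of the skeletal muscle list went from 4.05 to -0.36. Acta1, Myh1, Myh4, Atp2a1 and Tnnt3 still had log2 fold changes of 4.47, 5.81, 7.44, 4.84 and 3.55 in that fit. Those of Ckm and Mb were -0.024 and -1.61.

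**Figure D2:**
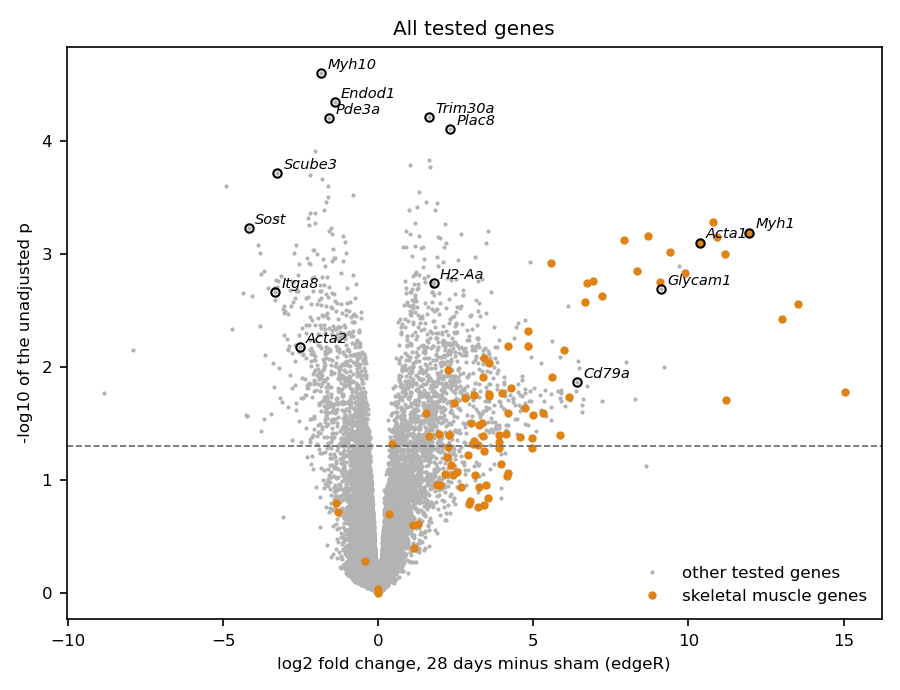
Each point is a tested gene, with its log2 fold change (28 days minus sham) on the horizontal axis and -log10 of the unadjusted edgeR p on the vertical axis; orange points are the 93 skeletal muscle genes and the dashed line marks the unadjusted threshold of 0.05. Myh10, Endod1, Pde3a, Trim30a and Plac8 have the smallest p, while the largest fold changes, such as that of Myh1 (11.95), belong to skeletal muscle genes.

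Contractile smooth muscle genes, which make the filaments and the force of the media, were lower at 28 days. Of 28 tested members 16 were lower at an unadjusted p under 0.05 and 0 higher, 16 lay below sham in every library, and DESeq2 called 14 lower; the median log2 fold change was -1.71 against -0.080 over all genes. Acta2, the smooth muscle actin that forms the thin filament, was at 13376, 4653 and 10308 CPM in sham and 2814, 1125 and 957 CPM at 28 days. Myh11, the smooth muscle myosin heavy chain and the most specific marker of the lineage, was at 5692, 1810.0 and 3919 CPM in sham and 1078, 378 and 329 CPM at 28 days. In both, sham library 2 was the lowest of the controls and 28-day library 1 the highest of the treated, and the groups did not overlap (adjusted p = 0.217 and 0.242 by edgeR, 0.00292 and 0.0121 by DESeq2). Tagln, the actin-binding transgelin, read 6211, 1995 and 3599 against 1482, 535 and 476 CPM. Cnn1, calponin, which brakes the myosin ATPase, read 1250.0, 369.8 and 895 against 285, 106 and 76.9 CPM. Myl9, the regulatory light chain whose phosphorylation starts contraction, read 3307, 1002 and 2147 against 626, 235 and 234 CPM, and Mylk, the kinase that phosphorylates it, 905, 289.8 and 595 against 268, 112 and 105 CPM.

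The members with the smallest p in the list were Pdlim7, Flna, Acta2, Cald1 and Ppp1r14a. Pdlim7, a scaffold of actin-anchored sites, went from 604, 187 and 367 to 152, 84.2 and 83.5 CPM (log2 fold change -1.85 ± 0.44, adjusted p = 0.203 by edgeR). Flna, filamin A, which crosslinks actin and binds integrins, went from 6792, 2050.5 and 4406 to 1422, 723 and 678 CPM (-2.23 ± 0.57, adjusted p = 0.213). The myosin phosphatase inhibitor Ppp1r14a had 373, 68.1 and 144 CPM in sham and 44.3, 16.6 and 16.6 CPM at 28 days, a mean 7.54-fold lower. Lmod1, leiomodin, which nucleates smooth muscle actin filaments, had 664, 158 and 422 against 119, 43.3 and 31.2 CPM. The remaining non-overlapping members were Smtn, Cald1, Vcl, Csrp1, Ppp1r12b and Synpo2, with log2 fold changes of -2.16, -1.55, -1.26, -1.66, -1.68 and -2.11.

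The members that were not lower at that p included those that striated muscle also uses. Des, the desmin of all muscle intermediate filaments, read 127, 120.0 and 96.2 CPM in sham and 869, 300.3 and 62.5 CPM at 28 days, so the high values were those of the 28-day libraries rich in skeletal muscle, and 28-day library 3 lay below every sham library. Tpm2, beta-tropomyosin, read 1723, 496 and 1117 CPM in sham and 1597, 567 and 131 CPM at 28 days, with 28-day libraries 1 and 2 inside the sham range and 28-day library 3 below it. Ldb3, a Z-disc protein, read 114, 30.4 and 74.3 against 292, 89.1 and 11.4 CPM, again lowest in 28-day library 3. With 28-day libraries 1 and 2 left out, 28-day library 3 against sham gave a median of -2.54 for the list, with 13 members lower at that p; the lone library is then assumed to vary like the other groups. Leaving out 1 sham or 28-day library at a time gave medians between -2.23 (without 28-day library 1) and -1.30 (without sham library 1), and the 16 lower members became 10 without 28-day library 2 and 9 without 28-day library 3. The cardiac transcripts of sham library 1 and the nerve transcripts of sham library 2 stood beside the highest and the lowest contractile level of the controls; their part in the difference was not tested.

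**Figure D3:**
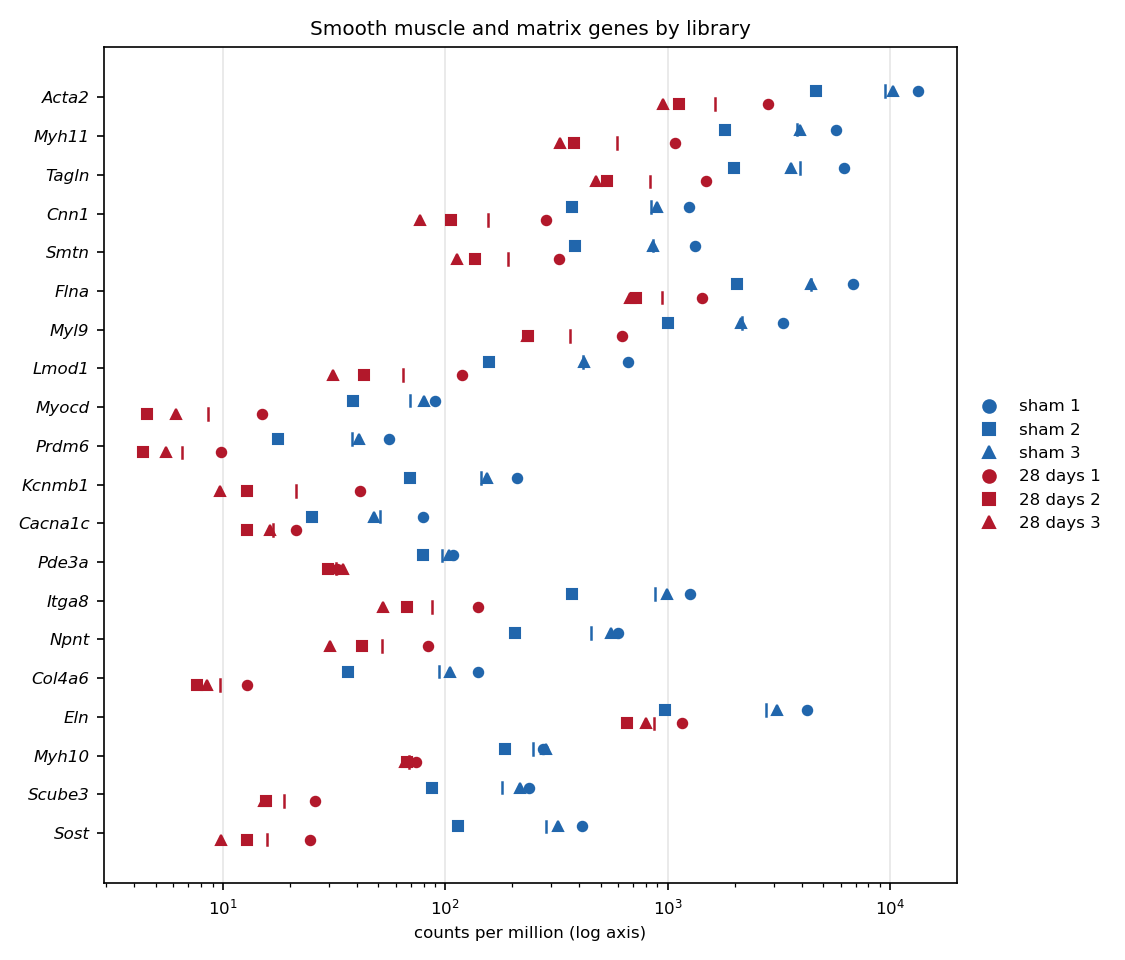
CPM of 20 smooth muscle, matrix and related genes in each library on a log axis; blue marks are sham libraries 1 to 3, red marks 28-day libraries 1 to 3, and short vertical lines are group means. All 3 red marks lie left of all 3 blue marks for each gene shown but Eln, where sham library 2 lies below 28-day library 1.

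Among the regulators of the smooth muscle program, Myocd and several factors restricted to mural cells were lower, while Srf and Klf4 overlapped. Myocd, the coactivator through which serum response factor turns on contractile genes, read 89.7, 38.3 and 80.7 CPM in sham and 15, 4.59 and 6.15 CPM at 28 days, with every treated library below every control (log2 fold change -3.03 ± 0.72, adjusted p = 0.203 by edgeR, 0.000795 by DESeq2). Srf itself was at 87.6, 51.2 and 78.8 against 80.01, 67 and 52.1 CPM, with overlapping groups. Prdm6, a repressor largely restricted to smooth muscle, read 55.9, 17.7 and 41.02 against 9.85, 4.37 and 5.54 CPM. Tbx18, a transcription factor of mural cells, read 57.5, 14.95 and 35.1 against 11.5, 7.02 and 9.95 CPM, and Tead3, a DNA-binding partner of YAP and TAZ, 100.2, 26.3 and 61.8 against 23.6, 11.4 and 14.5 CPM. The Notch target genes Heyl (218, 49.1 and 96.3 against 39.95, 21.3 and 26.9 CPM) and Hey2 (53.3, 36.5 and 37.3 against 11.4, 11.5 and 10.8 CPM) were lower in all 3 libraries, whereas Notch3, the receptor upstream of them in mural cells, was at 56.4, 54.6 and 54.6 against 101, 54.7 and 68.9 CPM and overlapped. Meox1, a homeobox factor known from activated fibroblasts, was the only tested member of the 31 that was higher at an unadjusted p under 0.05, at 3.94, 8.23 and 9.88 CPM in sham and 23.3, 18.2 and 15.6 CPM at 28 days. In all, 9 members were lower at that p and the list median was -0.13. Klf4, which represses contractile genes in cultured smooth muscle, was at 24.4, 46.4 and 79.9 against 69.7, 36.6 and 50.7 CPM and overlapped.

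A recognition sequence of serum response factor stands in the promoter of Myl9, one of the lower contractile genes, and its sequence is shown because Myocd acts through such sites. The CArG box, searched by its usual consensus on both strands, was present in 1.33% of the 14909 promoter windows of tested genes (250 bases before to 50 after a RefSeq start, build GRCm38.p6) and in 4 of 29 windows (13.8%) of the 24 contractile list genes matched, those of Ldb3, Myl9 and Vcl. The 250 bases before the start of Myl9 (chr2:156775214-156775463, plus strand) are given 5′ to 3′ with the CArG box in capitals, its first base 161 bases before the start.
Myl9: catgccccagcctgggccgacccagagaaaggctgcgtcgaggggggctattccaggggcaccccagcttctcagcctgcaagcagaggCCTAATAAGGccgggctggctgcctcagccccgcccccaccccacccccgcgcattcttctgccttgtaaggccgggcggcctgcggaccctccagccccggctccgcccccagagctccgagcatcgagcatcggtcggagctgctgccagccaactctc
A match is a description of these letters and not a measured binding site.

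Ion channels and receptors that set the calcium level and tone of the muscle were lower as well. Of 31 tested members 12 were lower at an unadjusted p under 0.05 and 1 higher, with a median of -0.90; the lower members numbered 5 without sham library 1, 7 without 28-day library 2 and 4 without 28-day library 3. Kcnmb1, the subunit that tunes the large-conductance potassium channel of smooth muscle to calcium, was at 211, 69.6 and 154 CPM in sham and 41.6, 12.8 and 9.72 CPM at 28 days. Kcnma1, the pore of the same channel, was at 53.9, 55.3 and 38.6 against 17.4, 23.6 and 18.2 CPM; both were lower in all 3 libraries. Cacna1c, the L-type calcium channel pore, read 79.3, 25.2 and 47.7 against 21.3, 12.9 and 16.3 CPM, and its beta subunit Cacnb2 22.7, 9.94 and 16.8 against 4.05, 1.93 and 2.28 CPM. Kcnab1, a beta subunit of voltage-gated potassium channels, read 128, 42.6 and 77.2 against 14.6, 7.52 and 7.897 CPM, a mean 8.27-fold lower (log2 fold change -3.05 ± 0.74, adjusted p = 0.205 by edgeR). Trpm4, a calcium-activated cation channel, had groups that just failed to touch, at 37.8, 20.2 and 28.7 against 19.9, 12.4 and 12.3 CPM. Ednrb, the endothelin B receptor, was the member higher at that p, with 16.5, 28.97 and 24.7 CPM in sham and 58.5, 35.9 and 42.4 CPM at 28 days. Agtr1a, the type 1 receptor of Ang II, was highest in the 3 libraries with high nerve markers, at 4.69, 172 and 9.08 CPM in sham and 16.2, 86.9 and 46.5 CPM at 28 days.

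The cyclic nucleotide pathway, through which nitric oxide and cAMP relax the vessel, held 1 of the genes with the smallest p in the comparison. Pde3a, the phosphodiesterase that breaks down cAMP in smooth muscle and platelets, read 108, 79.2 and 104 CPM in sham and 32.5, 29.7 and 34.6 CPM at 28 days (chromosome 6, 141249269 to 141506862 in GRCm38). The treated libraries lay close together and the lowest control was above all of them (log2 fold change -1.59 ± 0.21, adjusted p = 0.203 by edgeR, 1.83e-09 by DESeq2). Both subunits of soluble guanylyl cyclase, the nitric oxide receptor, were lower in every library: Gucy1b1 at 133, 109.9 and 88.2 against 36.01, 42.6 and 27.6 CPM, and Gucy1a1 at 169, 184 and 117 against 66.1, 79.5 and 66.2 CPM. Mrvi1, the substrate through which cGMP kinase quiets calcium release, read 267, 84.97 and 196 against 70.7, 27.8 and 23.8 CPM, and Prkg1, that kinase, 28.8, 18.7 and 21.5 against 14.1, 8.599 and 6.45 CPM. Adcy5, an adenylyl cyclase, read 703, 192 and 334 against 126, 65.6 and 60.6 CPM. In the other direction Pde2a, a cGMP-stimulated phosphodiesterase found in endothelium among other cells, was at 62.9, 77.5 and 47.96 CPM in sham and 192, 162 and 109 CPM at 28 days. Of 29 tested members 8 were lower and 2 higher at an unadjusted p under 0.05, with a median of -0.33. Over all tested genes 5.89% were lower and 7.96% higher, so higher members were no more frequent here than in general. With 1 library left out, the lower count became 3 without sham library 1 and 4 without 28-day library 3, and the higher count 1 without sham library 1, 1 without sham library 3, 1 without 14-day library 3 and 1 without 28-day library 2.

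Integrins and the adhesion complexes that anchor cells to matrix were lower for the members typical of smooth muscle. Itga8, the nephronectin-binding integrin of contractile smooth muscle, read 1259.7, 371 and 996 CPM in sham and 141, 67.4 and 52.7 CPM at 28 days, a mean 10.1-fold lower (chromosome 2, 12106632 to 12301985 in GRCm38). Its basement membrane ligand Npnt, nephronectin, was lower beside it, at 599, 205 and 557 CPM in sham and 83.6, 42.1 and 30.3 CPM at 28 days. Itga9 (296, 132 and 334 against 77.3, 56.9 and 42.3 CPM), Itgb3 (96.6, 41.1 and 79.5 against 26.7, 25.5 and 20.7 CPM) and Itga3 (206, 109.7 and 138 against 66.4, 48.9 and 36.8 CPM) were also below sham in every library. Itgb1, the shared beta chain, read 976, 582 and 813 against 565, 383 and 420.4 CPM, a smaller difference with a gap between the groups. Zyx, the mechanosensitive adhesion protein zyxin, read 865, 263 and 595 against 214, 143 and 179.9 CPM. Itga6, a laminin receptor of endothelium, was higher in every library (32.7, 54.6 and 39.7 against 89.5, 67.9 and 83.6 CPM), and so was Itga4, an integrin of leukocytes (16.7, 11.8 and 15.5 against 22.99, 78.04 and 36.4 CPM). In all 13 of 32 tested members were lower and 2 higher at an unadjusted p under 0.05, and 16 lay below sham without overlap, at a median of -0.65. The higher members were no more frequent than the 7.96% of all tested genes. The lower count became 8 without sham library 1, 8 without 28-day library 2 and 8 without 28-day library 3, and the higher count 1 without sham library 3 and 1 without 28-day library 2.

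Among basement membrane genes the collagen IV chains divided by chain. Col4a6 read 140.1, 36.7 and 105 CPM in sham and 12.9, 7.67 and 8.504 CPM at 28 days, and Col4a5 167, 55.6 and 121 against 35.8, 19.3 and 29.6 CPM. Col4a3 and Col4a4, less abundant, were also below sham in all 3 libraries, with log2 fold changes of -1.71 ± 0.66 and -1.74 ± 0.60. Col4a1 and Col4a2, the general chains of every basement membrane, overlapped, at 839, 623 and 993 against 1164, 551 and 759 CPM for Col4a1 and 654, 430.5 and 682 against 798, 387 and 493 CPM for Col4a2. Col4a5 and Col4a6 are neighbours on the X chromosome and are read from a shared promoter region in opposite directions. The laminin chain Lamb2 was at 573, 285 and 567 against 329.8, 156 and 190.1 CPM and overlapped. In this list 8 of 21 were lower and 1 higher at an unadjusted p under 0.05, at a median of -0.30, and the lower count became 4 without sham library 3, 4 without 28-day library 2 and 4 without 28-day library 3.

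The genes with the smallest p among those lower at 28 days were all outside the contractile list. Myh10, non-muscle myosin heavy chain IIB, which smooth muscle carries beside its own myosin, read 275, 185 and 285 CPM in sham and 74.2, 67.3 and 65.8 CPM at 28 days, with all 3 treated libraries close together. Myh9, the non-muscle heavy chain IIA, did not share this, at 406, 249.7 and 339 against 439.6, 432 and 357 CPM. Endod1, an endonuclease-domain protein, read 149.8, 129 and 149 against 58.1, 57.1 and 45.9 CPM (-1.41 ± 0.18, adjusted p = 0.203 by edgeR). Pcdh7, a protocadherin, read 268, 116 and 167 against 47.7, 43.4 and 41.8 CPM. Scube3, a secreted protein that binds TGF-beta receptors, read 238, 87.2 and 217 against 25.9, 15.6 and 15.3 CPM, a mean 9.54-fold lower. Each of these 4 had 3 treated libraries close together and sham library 2 as the lowest control.
The other members of the 12 were Pi15, a secreted CRISP-family protein, Napepld, which makes N-acylethanolamine lipids, Fbxo30, a ubiquitin ligase subunit, Xpr1, the phosphate exporter, Osbpl3, an oxysterol-binding protein, Mark1, a microtubule-affinity kinase, and Slc4a3, a chloride-bicarbonate exchanger. Their log2 fold changes were -2.20, -1.82, -1.62, -0.80, -1.63, -1.67 and -1.75, all with an adjusted p of 0.203 by edgeR. Xpr1 showed the smallest difference of these with the tightest controls, at 83.97, 80.5 and 78.9 CPM in sham and 41.8, 52.02 and 45.7 CPM at 28 days. Sost, the Wnt antagonist sclerostin known from bone and expressed in aortic smooth muscle, read 414, 114 and 320.2 CPM in sham and 24.6, 12.8 and 9.79 CPM at 28 days, a mean 17.96-fold lower (log2 fold change -4.17 ± 0.76, adjusted p = 0.203).

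Eln, elastin, was at 4222, 970.3 and 3111 CPM in sham and 1159.6, 658 and 800.2 CPM at 28 days; sham library 2 lay inside the treated range, so the groups overlapped, and the log2 fold change was -1.67 ± 0.52 (adjusted p = 0.237 by edgeR, 0.0179 by DESeq2). Fbn1, fibrillin-1 of the microfibril scaffold, overlapped at 203, 104 and 299.5 against 257, 118 and 278 CPM. Ltbp1, which stores latent TGF-beta on microfibrils, was lower at 468, 167 and 357 against 124, 57.3 and 49.2 CPM. Only these 2 of 19 elastic fibre genes, Eln and Ltbp1, were lower at an unadjusted p under 0.05 and 0 were higher, at a median of 0.11; that share lies near the 5.89% of all genes, and the lower count became 6 without sham library 2 and 4 without 28-day library 1.
Fibrillar collagens and fibrosis genes were higher for 5 of 32 and lower for 0 at that p, 10 lay above sham in every library, and the median was 0.57. The higher count became 3 without sham library 1, 3 without sham library 2, 3 without sham library 3, 10 without 14-day library 2, 1 without 28-day library 1 and 2 without 28-day library 3, and without sham library 3 the median was 0.95. The lower count became 2 without sham library 2 and 2 without 28-day library 1. Col1a1, the main collagen of scar, read 1037, 495 and 1202 CPM in sham and 2248, 1381 and 2498 CPM at 28 days, above sham in each library (log2 fold change 1.16 ± 0.64, adjusted p = 0.502). Col3a1 read 1467, 886 and 1806 against 3114, 1436 and 3487 CPM and overlapped, since 28-day library 2 lay below sham library 3. Col8a1, a short-chain collagen of injured vessels, had the smallest p of the list, at 25.1, 17.5 and 19.5 CPM in sham and 86.4, 47.2 and 83.4 CPM at 28 days. Thbs1, the matricellular activator of TGF-beta, read 78, 40.5 and 48.9 against 183, 80.6 and 108 CPM. Dcn and Lum, small proteoglycans of adventitial fibroblasts, read 600.1, 1060.5 and 1165 against 2219, 1155 and 2255 CPM for Dcn, which overlapped, and 225, 133 and 184 against 593, 252 and 586 CPM for Lum, and Fn1, fibronectin, overlapped at 1440.4, 1411 and 1672 against 1938, 841 and 1009.9 CPM. In the 3 collagens 28-day library 2 was the lowest treated library, as it was for the adventitial fibroblast marker list.

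Proteases that cut matrix were higher for the gelatinases. Mmp9, gelatinase B of neutrophils and macrophages, read 6.07, 7.44 and 4.98 CPM in sham and 25.7, 16.6 and 28.5 CPM at 28 days (log2 fold change 1.93 ± 0.60, adjusted p = 0.236 by edgeR, 0.0349 by DESeq2). Mmp2, gelatinase A of fibroblasts and smooth muscle, read 116, 121 and 164 against 483, 205 and 478 CPM. Both were above sham in every library. Mmp12, the macrophage elastase, depended on 1 control: it was at 259, 1.07 and 41.02 CPM in sham, with sham library 1 above all treated libraries, and 253, 198 and 154 CPM at 28 days. The inhibitor Timp1 overlapped at 59.6, 7.08 and 35.7 against 65.1, 33.6 and 77.3 CPM. Reck, a membrane-anchored inhibitor of matrix metalloproteinases, was lower in every library, at 69.4, 36.8 and 62.3 against 21.5, 17.6 and 19.1 CPM, and Serpine2, a serpin that blocks thrombin and plasminogen activators, likewise at 578, 288 and 485 against 245, 136 and 146 CPM. Adam33, a smooth muscle metalloprotease, read 141, 30.1 and 63.9 against 15.98, 26.8 and 14.5 CPM and was the only tested protease of 39 that was lower at an unadjusted p under 0.05, against 2 higher, Mmp2 and Mmp9, a share below the 7.96% of all genes. With 1 library left out the higher count was 4 without sham library 1, 1 without sham library 2, 9 without 14-day library 2, 5 without 14-day library 3, 1 without 28-day library 1, 4 without 28-day library 2 and 1 without 28-day library 3.

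TGF-beta family genes were lower where they passed that p at all: 10 of 38, with 0 higher and a median of -0.25. That count became 5 without sham library 1, 4 without sham library 3, 5 without 28-day library 2 and 5 without 28-day library 3, and the median ranged from -0.48 without 28-day library 1 to -0.12 without 28-day library 3. Fstl3, a secreted antagonist of activin, read 145, 46.6 and 96.9 CPM in sham and 30.98, 15.6 and 17.01 CPM at 28 days. Inhba, which encodes the activin A subunit that Fstl3 binds, read 39, 16.2 and 29.3 against 13.2, 6.16 and 6.83 CPM, and Bmp4 56.4, 27.2 and 36.4 against 14.89, 15.6 and 13.7 CPM, each below sham in all 3 libraries. Bmpr1a, a type I receptor for BMP4, was lower too, at 152, 91.05 and 117 against 71.04, 49.2 and 56.9 CPM. Tgfb1, the isoform of leukocytes and platelets, lay above sham in every library at 67.6, 35.5 and 53.2 against 81.2, 119 and 97.3 CPM (log2 fold change 0.93 ± 0.45, adjusted p = 0.434), whereas Tgfb2 was at 52.2, 18.6 and 40.8 against 26.7, 10.96 and 14.4 CPM and overlapped.

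**Figure D4:**
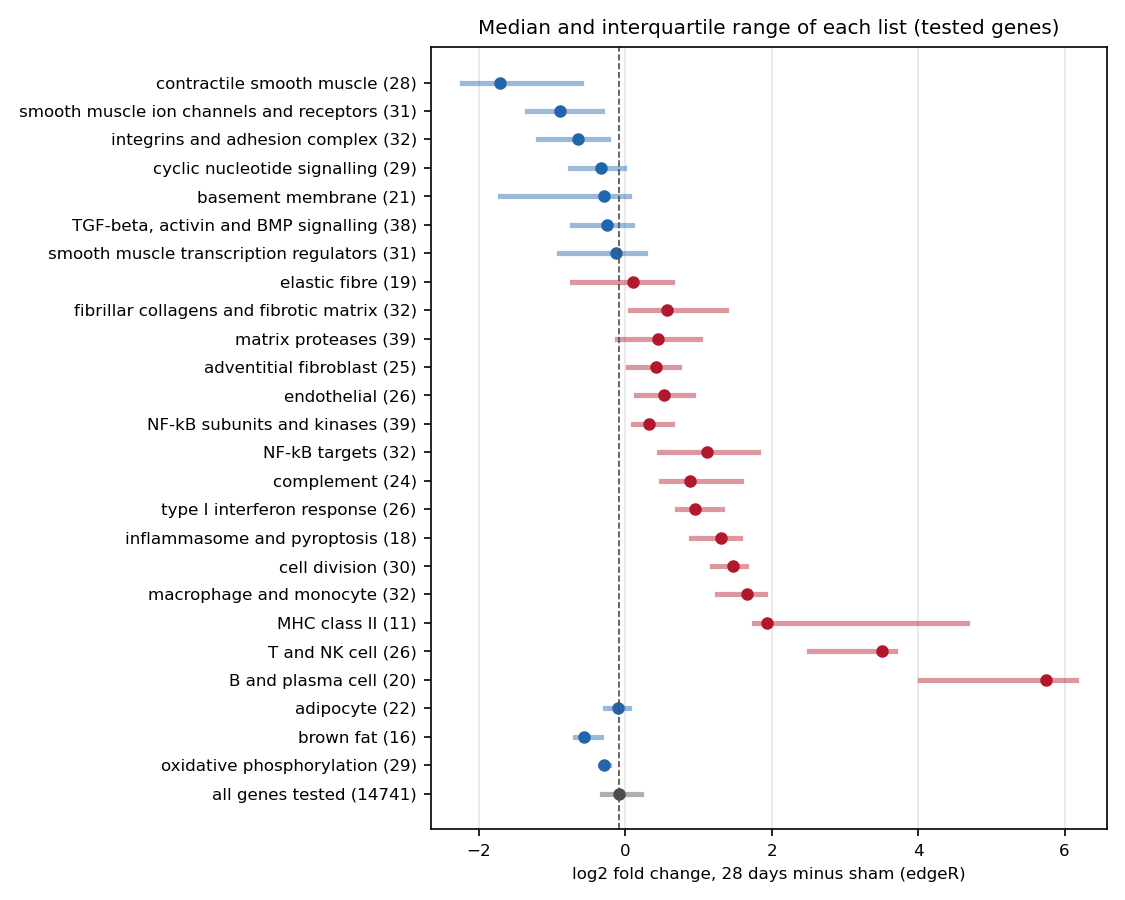
Median log2 fold change (dot) and interquartile range (bar) over the tested members of 25 gene lists and over all tested genes, with the number tested in brackets; blue is a median below 0, red above 0, and the dashed line is the median of all genes, -0.080. Contractile smooth muscle has the lowest median shown (-1.71) and B and plasma cell genes the highest (5.74).

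Genes induced by type I interferon were higher at 28 days. The type I interferons signal through a complex that contains IRF9 and binds the interferon-stimulated response element in the promoters of antiviral genes. Of 26 tested members 18 were higher at an unadjusted p under 0.05 and 0 lower, 18 lay above sham in every library, DESeq2 called 12 higher, and the median was 0.96. Trim30a, Oas1a and Zbp1 were among the 12 higher genes with the smallest p.

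The element is shown in 4 members because it is the sequence these genes are known to share. A core of it, GAAA-NN-GAAA searched on both strands with overlaps counted, was present in 3.19% of the 14909 windows of tested genes and in 13 of the 22 windows (59.1%) of the 19 interferon list genes matched. These 12 genes held it: Bst2, Ddx58, Ifih1, Ifit1, Ifit3, Ifitm3, Isg15, Oas1a, Oas3, Rsad2, Stat2 and Trim30a. In the contractile list 2 of 29 windows (6.90%) did. The 250 bases before the RefSeq start (GRCm38.p6, minus strand, written 5′ to 3′ in the direction of transcription) are given with each match in capitals.
Isg15, chr4:156200819-156201068, with 3 overlapping matches whose first bases lie 78, 72 and 66 bases before the start: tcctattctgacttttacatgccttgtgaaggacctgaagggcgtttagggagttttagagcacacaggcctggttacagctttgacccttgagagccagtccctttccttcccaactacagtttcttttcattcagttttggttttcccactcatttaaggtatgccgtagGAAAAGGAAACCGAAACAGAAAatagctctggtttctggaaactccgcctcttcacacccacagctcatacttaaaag
Oas1a, chr5:120907526-120907775, with 2 overlapping matches at 20 and 14 bases: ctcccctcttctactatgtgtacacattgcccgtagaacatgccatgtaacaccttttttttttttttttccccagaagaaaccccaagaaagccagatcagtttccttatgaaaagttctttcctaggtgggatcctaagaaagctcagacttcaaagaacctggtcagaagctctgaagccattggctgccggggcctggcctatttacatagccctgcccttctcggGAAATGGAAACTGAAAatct
Oas3, chr5:120777660-120777909, with 1 match at 75 bases: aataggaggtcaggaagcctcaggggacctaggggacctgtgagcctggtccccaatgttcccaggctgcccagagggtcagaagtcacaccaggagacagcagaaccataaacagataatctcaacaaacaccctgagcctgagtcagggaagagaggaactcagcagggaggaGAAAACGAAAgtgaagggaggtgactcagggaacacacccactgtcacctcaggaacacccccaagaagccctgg
Trim30a, chr7:104465194-104465443, with 1 match at 36 bases, read on the other strand: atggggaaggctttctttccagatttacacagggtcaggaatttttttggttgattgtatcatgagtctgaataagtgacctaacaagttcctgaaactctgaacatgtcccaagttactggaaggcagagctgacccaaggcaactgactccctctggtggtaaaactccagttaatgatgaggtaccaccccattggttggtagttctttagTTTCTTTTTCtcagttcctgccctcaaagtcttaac
These are descriptions of letters in a window; binding was not measured.

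Trim30a, an interferon-induced ubiquitin ligase, had the smallest p of all higher genes: it read 14.2, 12.6 and 16.2 CPM in sham and 35.5, 53.7 and 44.5 CPM at 28 days (log2 fold change 1.64 ± 0.22, adjusted p = 0.203 by edgeR, 5.41e-08 by DESeq2; chromosome 7, 104409025 to 104465193 in GRCm38). The lowest treated library was above the highest control by more than the whole range of the controls. Oas1a, which makes the oligoadenylate messenger that activates RNase L, read 6.71, 5.86 and 8.28 against 20.4, 19.7 and 36.98 CPM, and Oas3, a relative with the same activity, 1.28, 1.57 and 0.801 against 2.52, 6.81 and 11.5 CPM. Ddx58, which encodes the RNA sensor RIG-I, read 25.9, 34.1 and 32.3 against 49.6, 55.1 and 55.05 CPM, and Irf9, the DNA-binding part of the signalling complex, 27.1, 31.1 and 29.99 against 49.9, 55.5 and 59 CPM, both with tight groups and a clear gap. Zbp1, a sensor of Z-form nucleic acids that can start necroptosis, read 5.97, 5.94 and 6.41 against 12.6, 21.4 and 31.4 CPM. Irf7, the amplifier of interferon production, was highest in 28-day library 3, at 16.2, 27.04 and 22.3 against 41.8, 50.2 and 126 CPM. Isg15, the ubiquitin-like modifier, was at 4.37, 10.01 and 6.05 against 13.4, 11.3 and 22.02 CPM, with a narrow gap. Ifit1 and Ifit3 overlapped, with sham library 2 the highest control, at 4.37, 37.98 and 6.23 against 15.4, 21.3 and 41.7 CPM for Ifit1 and 23.98, 44.8 and 15.5 against 29.8, 30.9 and 85.95 CPM for Ifit3.
Ifi27l2a, the most abundant member, overlapped at 1032, 643 and 491 against 553, 443 and 1181 CPM. With 28-day libraries 1 and 2 left out the list median was 1.47, and without 28-day library 3 it was 0.82, with 12 members higher at that p.

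The other 9 of the 12 higher genes with the smallest p were largely immune as well. Plac8, a small protein of myeloid and lymphoid cells, read 5.33, 5.51 and 9.699 CPM in sham and 26.2, 31.9 and 43.8 CPM at 28 days (log2 fold change 2.31 ± 0.32, adjusted p = 0.203). Ifi47, an immunity-related GTPase induced by interferon gamma, read 9.91, 13.3 and 11.9 against 25.4, 45.1 and 40.5 CPM. Parp14, an ADP-ribosyltransferase, and Rnf213, a giant ubiquitin ligase, had modest and even differences, 30.5, 38.8 and 29.7 against 62.9, 72.95 and 65.4 CPM and 40.8, 47.5 and 46.6 against 74.4, 86.3 and 109.6 CPM. Uba7, the activating enzyme for ISG15, read 21.5, 26.8 and 20.1 against 47.2, 61.2 and 46.5 CPM, and Tmem176b, a membrane protein of antigen-presenting cells, 82.8, 94.2 and 66.03 against 182, 213 and 203 CPM. The remaining immune members were Ifi205, a DNA sensor of the p200 family, and Phf11b, with log2 fold changes of 1.65 ± 0.25 and 1.53 ± 0.26. The ninth was the endothelial gene Cldn5, described below. Oas1a, Ifi205 and Phf11b each belong to clusters of similar genes among which the authors' counting could split reads, so their values are less certain.

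**Figure D5:**
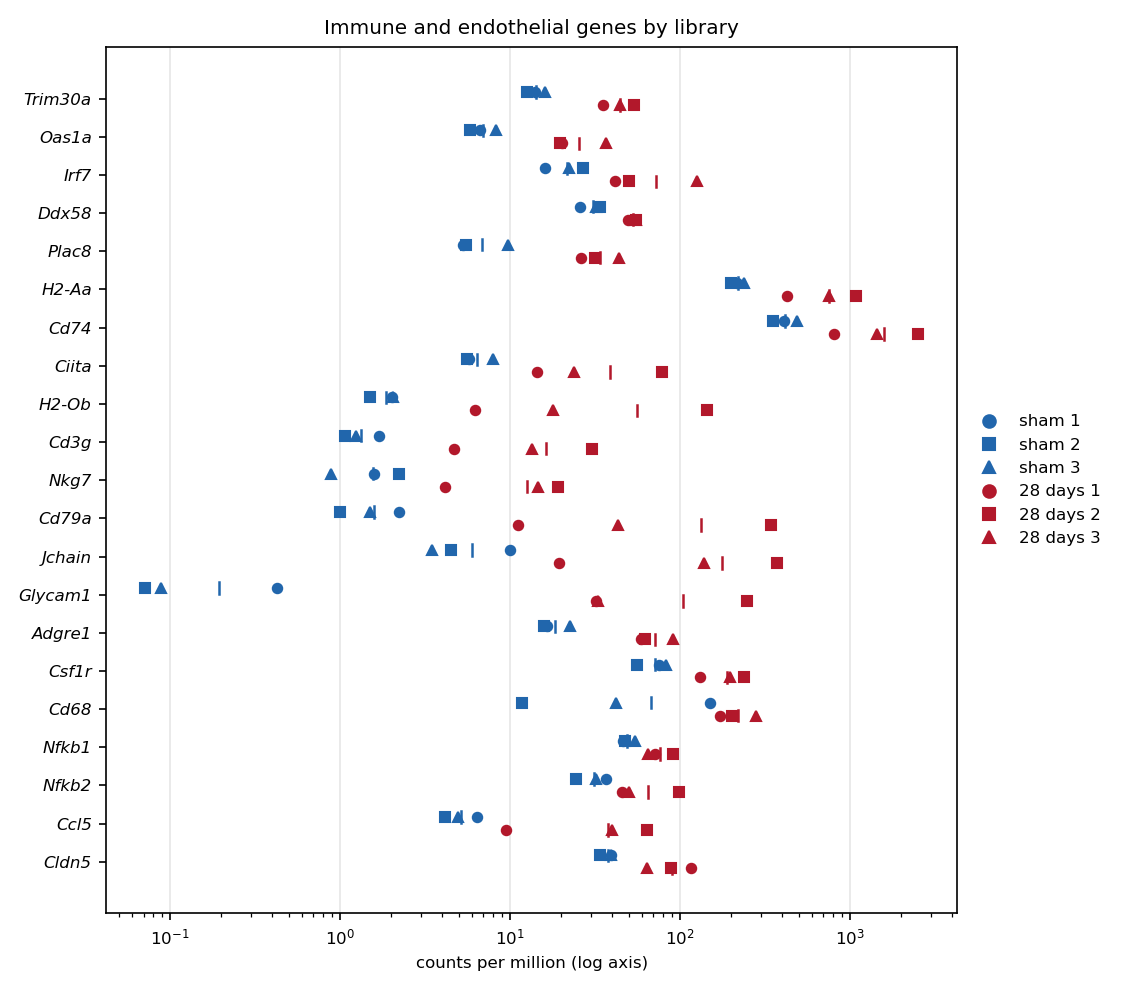
CPM of 21 immune and endothelial genes in each library on a log axis; blue marks are sham libraries 1 to 3, red marks 28-day libraries 1 to 3, and short vertical lines are group means. Interferon-induced genes such as Trim30a have 3 close red marks, whereas Cd79a and H2-Ob are highest in 28-day library 2 and lowest of the treated in 28-day library 1.

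Genes of MHC class II antigen presentation were higher without exception. All 11 tested members lay above sham in every library and were higher at an unadjusted p under 0.05 and by DESeq2, at a median of 1.93. H2-Aa and H2-Ab1, the chains of the I-A molecule, read 218, 200.1 and 239 CPM in sham and 428, 1083 and 758 CPM at 28 days for H2-Aa, and 216, 169.7 and 211 against 375, 923 and 678 CPM for H2-Ab1 (log2 fold change 1.73 ± 0.39, adjusted p = 0.203 by edgeR). Cd74, the invariant chain, was at 412, 355 and 488 against 813, 2533 and 1442 CPM. Ciita, the transactivator of the whole family, was at 5.75, 5.58 and 7.92 against 14.4, 79.04 and 23.8 CPM. The controls were close to each other and 28-day library 2 was the highest in each. The B cell-typical members H2-Ob (2.02, 1.502 and 2.05 against 6.24, 145 and 18 CPM) and H2-Oa (1.28, 0.644 and 0.178 against 2.63, 42.2 and 6.91 CPM) were far more uneven among the treated. Without 28-day library 2 the list median was 1.58, with 6 members higher at that p.

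Lymphocyte genes were low in sham and higher at 28 days, unevenly among the treated libraries. T and NK cell genes were higher for 22 of 26 at an unadjusted p under 0.05, 0 were lower, and the median was 3.51; their level was 0.19, 0.30 and 0.24 in sham and 1.38, 3.93 and 2.98 at 28 days (mean log2 CPM). Cd3g, a chain of the T cell receptor complex, read 1.705, 1.07 and 1.25 CPM in sham and 4.71, 30.6 and 13.4 CPM at 28 days, and Cd3e, another chain, 0.533, 0.715 and 0.356 against 0.766, 13.8 and 4.78 CPM. The cytotoxic granule gene Nkg7 had the smallest p, at 1.598, 2.22 and 0.8898 against 4.16, 19.2 and 14.6 CPM (log2 fold change 3.0 ± 0.73, adjusted p = 0.205), and the pore protein Prf1 read 0.107, 0.286 and 0.267 against 0.985, 4.73 and 2.43 CPM. Foxp3, which marks regulatory T cells, had 0.213, 0.215 and 0.267 against 1.204, 8.599 and 2.05 CPM. All 5 of these genes were highest in 28-day library 2 and lowest of the treated in 28-day library 1.

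B and plasma cell genes had the highest median of the 45 lists. Of the 20 tested members 17 were higher at an unadjusted p under 0.05 and 0 lower, DESeq2 called 17 higher, and the median was 5.74. Cd79a, a signalling chain of the B cell receptor, read 2.24, 1.001 and 1.51 CPM in sham and 11.2, 344 and 43.4 CPM at 28 days (chromosome 7, 24897497 to 24901858 in GRCm38). Jchain, which joins secreted IgA and IgM and marks plasma cells, read 10.02, 4.51 and 3.47 against 19.6, 372 and 139.6 CPM (log2 fold change 4.89 ± 1.0, adjusted p = 0.203 by edgeR, 1.06e-06 by DESeq2). For Cd79a and Jchain 28-day library 2 was far above the other treated libraries, and 28-day library 1 was the nearest to sham.

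Transcripts of the lymph node stroma list moved with the B cell genes, in part by construction. The list shares Cr2 with the B cell list and also names the lymphocyte genes Lta, Ltb and Ccr7. Glycam1, the mucin of high endothelial venules, was at 0.426, 0.0715 and 0.08898 CPM in sham and 32.2, 248 and 33.03 CPM at 28 days. Ccl21a, the chemokine of lymphatic vessels and T zones, whose near-identical copies make its count uncertain, read 47.95, 62.7 and 32.1 against 161, 428 and 195 CPM, Ccl19 4.05, 2.07 and 6.32 against 8.54, 41.1 and 11.7 CPM, and Cxcl13, the B cell follicle chemokine, 1.49, 6.94 and 1.07 against 10.3, 72.1 and 10.02 CPM. All 8 tested members were above sham in every library, and their level was 0.40, 0.39 and 0.47 in sham and 2.94, 6.15 and 3.77 at 28 days; whether the lymphocyte genes come from the wall or from lymphoid tissue beside it was not tested. Without 28-day library 2 the medians were 3.59 for B cells, 2.54 for T and NK cells and 3.0 for lymph node stroma, with 4, 9 and 4 members higher at an unadjusted p under 0.05. Leaving out a control also lowered the number that passed: over all such fits the B cell count became 11 without sham library 1, 7 without sham library 2, 8 without sham library 3 and 4 without 28-day library 2, and the T and NK cell count 9 without sham library 1, 14 without sham library 2, 12 without sham library 3 and 9 without 28-day library 2.

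Macrophage genes mostly lay above sham, with controls that varied for the markers of lipid-laden cells. Of 32 tested members 24 lay above sham in every library and 1 below it, while 10 were higher and 1 lower at an unadjusted p under 0.05, at a median of 1.66. Adgre1, the F4/80 antigen, was at 16.5, 15.9 and 22.7 CPM in sham and 59.4, 62.3 and 91.9 CPM at 28 days (log2 fold change 1.96 ± 0.81, adjusted p = 0.339). Csf1r, the receptor on which macrophages depend, was at 75.8, 56.1 and 83.6 against 132, 239 and 199 CPM, and Ptprc, the CD45 antigen of all leukocytes, at 23.4, 12.8 and 20.3 against 48.1, 247 and 108 CPM. Aif1, an actin-bundling protein of macrophages, had the smallest p, at 7.03, 4.51 and 4.63 against 10.9, 22.5 and 28.4 CPM. Ccr2 and Ly6c2, of inflammatory monocytes, read 8.52, 11.2 and 18.6 against 23.8, 19.8 and 50.1 CPM for Ccr2 and 2.98, 4.51 and 4.36 against 4.71, 48.1 and 37.7 CPM for Ly6c2.
Markers of lipid-laden macrophages behaved otherwise. Cd68 was at 150.2, 11.7 and 42.4 against 173, 202 and 282 CPM, Trem2 at 77.6, 3.15 and 8.63 against 96.4, 96.5 and 144 CPM, and Gpnmb at 737, 24.7 and 133 against 509, 388 and 427 CPM. In all 3 sham library 1 was near, inside or above the treated range, while sham library 2 was lowest. Spp1, osteopontin, showed 578, 11.7 and 79.8 CPM in sham and 575, 935 and 1513 CPM at 28 days, with sham library 1 just above the lowest treated library. With 1 sham or 28-day library left out, the median of the list ranged from 1.26 (without sham library 2) to 2.18 (without sham library 1), and the 10 higher members became 5 without sham library 2, 21 without 14-day library 2, 3 without 28-day library 2 and 3 without 28-day library 3. Neutrophil genes were higher at that p for 4 of 6 (1 without sham library 2 and 2 without 28-day library 2): S100a8 and S100a9 were at 0.213, 0.286 and 0.801 against 2.96, 2.58 and 1.29 CPM for S100a8 and 0.959, 0.858 and 1.33 against 9.96, 6.02 and 1.59 CPM for S100a9, with 28-day library 1 highest.

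NF-kB, a family of dimers held in the cytoplasm by inhibitor proteins until their kinases are activated, was examined through its subunits and through its target genes. Nfkb1, which encodes p105 and p50, was at 46.1, 47.3 and 54.4 CPM in sham and 71.7, 91.4 and 65.1 CPM at 28 days, above sham in each library (log2 fold change 0.63 ± 0.21, adjusted p = 0.254 by edgeR, 0.102 by DESeq2). Nfkb2 (36.98, 24.5 and 32.3 against 45.97, 98.7 and 50.1 CPM) and Relb (18.4, 17.2 and 25 against 21.3, 53.1 and 34.4 CPM) of the non-canonical arm were highest in 28-day library 2, and Relb overlapped. Rela, the p65 subunit, showed almost no difference, at 90.3, 67.2 and 97.3 against 90.6, 87.5 and 84.4 CPM, and Ikbkb and Chuk, the catalytic kinases, had log2 fold changes of 0.33 ± 0.32 and 0.094 ± 0.14. Nfkbia, the inhibitor that NF-kB itself induces, read 61.3, 41.3 and 50.4 against 72.2, 96.7 and 68.6 CPM. Across 39 subunits, kinases and adaptors 9 were higher and 0 lower at an unadjusted p under 0.05, and the median was 0.33.
Among target genes 15 of 32 were higher and 0 lower at that p, with a median of 1.12. Ccl5, a chemokine of T cells and macrophages, had the smallest p, at 6.39, 4.15 and 4.98 against 9.52, 64.1 and 39.9 CPM. Cd83, of activated antigen-presenting cells, was at 7.78, 4.15 and 8.19 against 15.1, 44.9 and 21.3 CPM, and Irf1 at 46.7, 35.1 and 35.7 against 58.3, 80.05 and 58.4 CPM. The cytokines themselves were scarce. Tnf was at 0.959, 0.215 and 0.356 against 0.985, 4.23 and 2.35 CPM, Il1b at 1.705, 0.501 and 1.69 against 2.96, 3.65 and 4.48 CPM, and Ccl2 at 2.98, 1.07 and 4.45 against 4.93, 3.08 and 15.4 CPM, and only Il1b of the 3 had a clear gap between the groups. Il6 was too low to test, at 0.426, 0 and 0.356 against 0.657, 0.143 and 0.304 CPM. Vcam1 and Ptgs2, targets in the vessel wall, overlapped, with log2 fold changes of 0.059 ± 0.45 and -0.065 ± 0.45. 28-day library 2 also carried the most lymphocyte transcripts. With 1 library left out the target count became 9 without sham library 2 and 6 without 28-day library 2, and the subunit count 3 without sham library 2 and 1 without 28-day library 2; the medians without 28-day library 2 were 0.89 and 0.28.

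Inflammasome and complement genes were higher as well, while genes of reactive oxygen went both ways. Of 18 inflammasome genes 11 were higher and 0 lower at an unadjusted p under 0.05 (median 1.31), and 7 without 28-day library 2. Aim2, the DNA sensor, was at 4.58, 2.29 and 2.31 against 9.85, 28.3 and 10.9 CPM, Pycard, the adaptor, at 5.54, 3.43 and 4.27 against 9.19, 20.7 and 17.8 CPM, and Casp1, the protease they activate, at 14.2, 10.9 and 16.6 against 25.2, 26.7 and 28.2 CPM. Nlrp3 itself overlapped, at 1.39, 0.501 and 1.07 against 1.09, 2.15 and 3.95 CPM.
Complement genes were higher for 7 of 24 at that p, with 0 lower and a median of 0.88, and the higher count became 4 without sham library 2, 14 without 14-day library 2 and 4 without 28-day library 3. Cfb, factor B of the alternative pathway, read 101, 72.1 and 119.5 CPM in sham and 178, 210.2 and 259.7 CPM at 28 days (log2 fold change 1.15 ± 0.25, adjusted p = 0.203), and C3, the central component, 746, 889 and 1241 against 2108, 1331 and 1799 CPM.
Of 22 tested genes of reactive oxygen 5 were higher and 2 lower at that p, at a median of 0.07. Over all tested genes 7.96% were higher and 5.89% lower, so the 2 lower genes lie near the general share. The higher count became 3 without sham library 2. The lower count became 1 without sham library 1, 1 without sham library 3 and 1 without 28-day library 2. The oxidant-producing enzymes named here differed by the cell each is known from. Nox4, the NADPH oxidase of smooth muscle, was at 279, 67.6 and 153 CPM in sham and 73.2, 22.4 and 35.4 CPM at 28 days, lower on average although 28-day library 1 lay above sham library 2. Cybb, the catalytic subunit of the phagocyte oxidase, was at 34.7, 10.2 and 20.3 against 48.2, 91.3 and 96.7 CPM, and its partner Ncf1 at 14.8, 6.72 and 12.4 against 35.1, 92.4 and 60.9 CPM, both above sham in every library. Hmox1, haem oxygenase 1, was at 49.2, 14.5 and 31.8 against 117, 287 and 506 CPM. Sod3, the extracellular superoxide dismutase of the wall, read 1059, 361 and 960.3 against 431, 224 and 384 CPM, and its groups overlapped.

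Genes of cell division were higher, at low levels. Of 30 tested members 22 were higher and 0 lower at an unadjusted p under 0.05, and the median was 1.47. A positive log2 fold change was found in 30 members, against 6006 of all 14741 tested genes. The count that passed became 13 without sham library 1, 9 without sham library 2, 13 without sham library 3, 6 without 28-day library 2 and 13 without 28-day library 3. Mki67, the antigen of cycling cells, was at 3.62, 2.57 and 6.23 CPM in sham and 9.85, 27.9 and 21.5 CPM at 28 days. Top2a, topoisomerase of the G2 and mitotic phases, was at 3.197, 2.57 and 4.18 against 7.55, 17.99 and 15.7 CPM, and Nusap1, a spindle protein, at 1.17, 1.57 and 2.58 against 4.49, 7.17 and 6.68 CPM. 28-day library 1 was the lowest treated library and 28-day library 2 the highest in Mki67 and Top2a, the same order as in the lymphocyte lists; the part of dividing lymphocytes was not tested.

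Endothelial genes were higher for a subset that includes tight junction and VEGF receptor genes. Of 26 tested members 9 were higher and 0 lower at an unadjusted p under 0.05, at a median of 0.53. Cldn5, the endothelial claudin, read 39.6, 34.1 and 39.2 CPM in sham and 117, 88.9 and 64.4 CPM at 28 days (log2 fold change 1.26 ± 0.22, adjusted p = 0.203 by edgeR, 5.87e-05 by DESeq2). Kdr, VEGF receptor 2, read 67.7, 81.8 and 99.3 against 226, 136 and 147 CPM, Flt4, VEGF receptor 3 of lymphatic and sprouting endothelium, 14.4, 22.96 and 13.5 against 39.5, 37.3 and 38.04 CPM, and Robo4, which stabilises vessels, 39.7, 34.1 and 32.8 against 114, 64.5 and 63.4 CPM. Pecam1, the general marker, overlapped at 379.8, 263 and 362 against 487, 322 and 282 CPM. The highest treated library for Cldn5, Kdr and Robo4 was 28-day library 1, which also had the most skeletal muscle RNA, and over the 9 libraries the level of these genes followed the skeletal muscle level with a Pearson r of 0.85, 0.80 and 0.79, values that are not independent of the group difference. Without 28-day library 1 the list median was 0.26, with 5 members higher and 1 lower at that p. With the skeletal muscle level as a covariate the list median was 0.093, with 2 members higher and 0 lower. The counts of this list include 1 member of the skeletal muscle set. Adventitial fibroblast genes were higher at that p for 4 and lower for 2 of 25, against 7.96% higher and 5.89% lower of all tested genes. Their higher count became 0 without sham library 1, 0 without sham library 2, 0 without 28-day library 1 and 0 without 28-day library 3. Pdgfra, the surface receptor of these cells, overlapped at 28.9, 36.2 and 54.8 against 55.9, 37.5 and 66.97 CPM.

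The fat around the vessel and its metabolic genes did not separate the groups. Adipoq, adiponectin of fat cells, was at 1341, 748 and 818 CPM in sham and 1104, 623 and 1308 CPM at 28 days, and Ucp1, the heat-producing uncoupler of brown fat, at 2359.5, 2895 and 6133 against 2981, 1088 and 2988 CPM. At an unadjusted p under 0.05, 0 of 22 adipocyte genes and 0 of 16 brown fat genes were higher, and 0 and 0 were lower, at medians of -0.094 and -0.56. Oxidative phosphorylation genes had a log2 fold change below 0 in 29 of 29 members, against 59.3% of all tested genes. Their median was -0.29, with 0 higher and 0 lower at that p. With 1 library left out the median ranged from -0.51 without 28-day library 1 to -0.0011 without sham library 3, and was -0.039 without 28-day library 2. Among 12 renin-angiotensin genes 0 were higher and 0 lower at that p. Nerve, ganglion and Schwann cell genes were lower for 1 and higher for 0 of 30. Direct comparison of 28 days with 14 days of Ang II gave 0 genes at an adjusted p under 0.05 by edgeR, the lowest being 0.770.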

How the data were processed

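Per the labels' protocols, 1.0 ug of total RNA entered each library and the MGIEasy mRNA kit was used before sequencing. The authors deposited 1 table of expected counts per library, keyed by Entrez Gene ID; 9.77% to 11.04% of the values are not whole numbers. The submitters' processing notes name HISAT2 2.2.1, Bowtie2 2.4.5, RSEM 1.3.1 and GRCm38.p6; which tool did what, and whether strand was used, is not given in the sources used here. Expected counts can split reads between near-identical genes.

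Counts were rounded to whole numbers and joined by Entrez Gene ID; 18775 of 18830 IDs matched a symbol and 55 did not. Groups came from the sample titles. edgeR 4.0.16 (filterByExpr, TMM scaling, robust quasi-likelihood fit, R 4.3.3) was fitted to all 9 libraries, 3 per group, with the contrast 28 days minus sham and Benjamini-Hochberg adjustment over 14741 tested genes; the common biological coefficient of variation was 51.3%. Alternatives were DESeq2 1.42.0, limma-voom 3.58.1, another scaling, other filters on low counts, a replicate block, covariates for muscle and nerve transcripts, and leaving libraries out. CPM are counts per 1000000 of TMM-scaled library size; list levels use log2 CPM with a prior count of 2. An exact permutation test of 3 against 3 libraries cannot give a p below 0.1, so none was used. The fit was tested on simulated counts with 200 changed genes.

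Members and the 45 gene lists were chosen with earlier results of these data known. Lists are described by counts and medians, with no set test. Genes were named by a rule: the 12 with the smallest p in each direction, at a mean of at least 10 CPM over the 6 libraries, with groups that do not overlap and outside the skeletal muscle set; in each list, members of smallest p or with the most reads; and 41 genes fixed by name, of which 1 is not reported here. Other list members are given for contrast and were chosen after their values were seen. The labels state no pairing by replicate number. Correlations of deviations were 0.436, 0.646 and -0.261 for numbers 1, 2 and 3, which cannot decide it because tissue makeup also differed between libraries.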

Additional observations from a re-analysis of the deposited data

How the results depend on the processing

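Of the count of genes at an adjusted p under 0.05 (0 by edgeR), DESeq2 gave 970, and leaving out 1 library at a time gave 0 to 7: 5 genes without sham library 2 (Itgb3, Ccdc42, Fbxo30, Myh10 and Igsf9) and 7 without 28-day library 3 (Gm13309, Actn3, Mylpf, Neb, Ryr1, Tnni2 and Myoz1); limma-voom and the other settings gave 0. The 1174 genes higher at an unadjusted p under 0.05 became 434 with the skeletal muscle level as a covariate, 445 without 28-day libraries 1 and 2, 682 without sham library 2, 14-day library 1 and 28-day library 2, 726 in limma-voom, and 713 to 1541 with 1 library left out, the lowest without 28-day library 2. The 868 lower genes became 296 without 28-day libraries 1 and 2, and 443 to 1086 with 1 library left out: 443 without 28-day library 3, 532 without 28-day library 2 and 537 without sham library 1. Fewer libraries enter these fits; for the covariate and limma-voom the cause was not tested. Other counts stayed within 1.5 times, and no scaling moved the median of all genes by over 0.1. Of 208 genes named, 126 passed 0.05 in DESeq2, against 970 of all 14741 tested. Many of the 208 were named for a small p in these same data, so their higher share is no separate result.

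Whether replicate numbers pair the libraries is not known. With the replicate number as a block 0 genes passed an adjusted p of 0.05, and 981 were higher and 979 lower at an unadjusted p under 0.05. In that fit 6 named genes changed sign: -0.00022 (Adipoq), 0.62 (Agtr1a), -0.028 (Col4a1), 1.92 (Dbh), -0.16 (Ifi27l2a) and 0.19 (Nr4a1). In all, 21 of the 208 genes named took the opposite sign of the log2 fold change in at least 1 setting. With the skeletal muscle level as a covariate, these were 0.75 (Agtr1a), 0.32 (Arntl), -0.27 (Ckm), -0.26 (Col4a1), 1.15 (Dbh), -1.35 (Des), -3.22 (Ldb3), -1.80 (Mb), -0.48 (Pecam1), -0.052 (Rela) and -0.33 (Vcam1). With the nerve level as a covariate, these were 0.27 (Agtr1a), -0.10 (Ifi27l2a) and 0.094 (Ptgs2). Without sham library 2, 14-day library 1 and 28-day library 2, these were 2.13 (Agtr1a), 4.17 (Dbh), -0.061 (Ikbkb), -0.14 (Rela) and -0.42 (Vcam1). In limma-voom, these were 0.88 (Agtr1a), 0.021 (Arntl), -0.013 (Col4a1), 1.93 (Dbh), 0.16 (Dbp), -0.080 (Ifi27l2a), 0.55 (Nr4a1) and 0.078 (Ptgs2). Without 28-day libraries 1 and 2, these were -0.024 (Ckm), -0.11 (Col4a1), -0.87 (Des), -2.68 (Ldb3), -1.61 (Mb), -0.25 (Pecam1), -0.0076 (Rela) and -0.058 (Vcam1). With 1 library left out at a time they ranged over -0.14 to 0.37 (Adipoq), -0.99 to 2.85 (Agtr1a), -0.32 to 0.23 (Col4a1), -0.42 to 0.13 (Col4a2), -1.61 to 5.23 (Dbh), -1.73 to 1.57 (Dbp), -0.21 to 0.56 (Fbn1), -0.50 to 0.35 (Ifi27l2a), -0.27 to 0.61 (Klf4), -0.54 to 1.41 (Ldb3), -0.72 to 0.68 (Nr4a1), -0.15 to 0.30 (Pecam1), -0.38 to 0.35 (Ptgs2), -0.10 to 0.20 (Rela), -0.33 to 0.045 (Srf) and -0.32 to 0.77 (Vcam1). The cause was not tested; no such gene passed an adjusted p of 0.05 in edgeR. The depth limits calls near the floor, which was 0.267 CPM in sham on average.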

Other observations

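Circadian clock genes set sham library 1 apart from the other controls. Dbp, an output gene of the clock, read 433, 18.1 and 28.9 CPM in sham and 88.4, 47.9 and 73.6 CPM at 28 days, and Per2, a repressor in its feedback loop, 157, 19.8 and 27.7 against 19.2, 12.2 and 17.7 CPM. Arntl, which encodes the activator BMAL1 and peaks at the opposite time of day, read 2.34, 27.96 and 28.6 against 12.4, 14.2 and 15.7 CPM. For all 3 genes the treated libraries lay closer together than the controls. Of 17 tested clock genes 2 were lower and 0 higher at an unadjusted p under 0.05, against 5.89% lower and 7.96% higher of all tested genes. The lower count became 1 without 14-day library 3, 0 without 28-day library 1, 0 without 28-day library 2 and 0 without 28-day library 3. Nr4a1, an early response gene of stressed tissue, was also lowest in sham library 1, at 19.1, 169 and 309.8 against 174, 172 and 92.3 CPM. The labels used here do not give the hour of sampling, and its part in these values was not tested.

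Red cell and platelet genes were higher for 6 of 9 at that p, with 0 lower; the higher count became 3 without sham library 1, 2 without sham library 2, 3 without sham library 3 and 3 without 28-day library 1. Hbb-bs, the beta globin, read 141, 158 and 178 CPM in sham and 649, 174 and 353 CPM at 28 days, highest in 28-day library 1, the library with the most skeletal muscle RNA. Alas2, the first enzyme of haem synthesis in red cell precursors, read 2.77, 4.43 and 4.36 against 16.97, 6.38 and 8.73 CPM. Pf4, the platelet chemokine that some macrophages also carry, read 13.5, 12.8 and 20.5 against 41.05, 39.8 and 77.7 CPM.

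Mast cell proteases were lower in the treated libraries without passing that p. Of 8 tested mast cell genes 0 were lower and 0 higher at it. The lower count became 1 without sham library 1 and 4 without 14-day library 2, and the higher count became 1 in each of these fits. Hpgds, a list member that is not a protease, went the other way, with means of 5.18 CPM in sham and 18.5 CPM at 28 days. Mcpt4 read 85.4, 22.96 and 24.5 CPM in sham and 7.33, 18.99 and 10.6 CPM at 28 days, and Cma1 47.1, 14.8 and 16.4 against 5.91, 12.3 and 8.73 CPM, below sham in each library. Of genes that carry lipid, Scarb1, the receptor that takes up cholesterol from high-density lipoprotein, read 91.6, 80.8 and 75.6 CPM in sham and 207, 134 and 135 CPM at 28 days (log2 fold change 0.94 ± 0.22, adjusted p = 0.203 by edgeR) and was the only 1 of 20 tested that was higher at that p. That higher count became 5 without sham library 1, 4 without 14-day library 2 and 2 without 28-day library 1. Of 16 tested cartilage and bone genes 8 had a log2 fold change above 0 and 8 below, at a median of -0.0076. Over all tested genes 59.3% lay below 0. Among these 16 Comp, a matrix protein of cartilage and injured vessels, read 25.3, 8.44 and 30.3 against 74.8, 31.9 and 109.8 CPM (log2 fold change 1.76 ± 0.97, adjusted p = 0.511 by edgeR). Marco, a scavenger receptor of macrophages in lymph node, spleen and lung, was chosen after its values were seen: it read 0.213, 0.143 and 0.08898 CPM in sham and 2.96, 358 and 22.9 CPM at 28 days, in the same order of the treated libraries as the B cell genes.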
